A study of Gallus gallus with 6 samples.

Results

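CALB1, LRRC17, PLA2G4F, FLNA, ERBB3, SEMA3D, AVD and FOXD1 are 8 chicken genes not placed on the W chromosome. Their brightest probes separated the blood leukocyte samples female 1 and 2 from male 1 and 2, as the W-linked gene HINTW did, AVD in the opposite direction. The 8 genes were chosen for this from the 4859 named genes that passed a filter on dim probes, of 5382 on the array. Those differences are given only as a description of how they were chosen. Their accessions matched 17 probes, and HINTW matched 8. Leukocytes from wing-vein blood of chickens aged 1 to 2 months were profiled on 6 one-colour arrays, 3 labelled female and 3 labelled male, to ask which genes differ by sex. The labels state no treatment, strain or transgene for these birds, although the series title speaks of transgenic and non-transgenic chickens, and they do not say whether the numbered samples came from separate birds. The spread behind each p-value is therefore that between the samples, and it may be technical.

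Birds have a ZZ male and a ZW female, so a transcript made only from W is present in females alone, while most Z genes run somewhat higher in males. HINTW is a multicopy W gene of the HINT nucleotide-hydrolase family and is widely used to tell female from male chicken tissue. The 8 genes have no pathway in common. Avidin (AVD), LRRC17 and SEMA3D are secreted, ERBB3 is a cell-surface receptor, CALB1, PLA2G4F and FLNA act in the cytoplasm, and FOXD1 is a transcription factor. In the gene table used here AVD and FOXD1 lie on Z, LRRC17 and SEMA3D on chromosome 1, CALB1 on chromosome 2, PLA2G4F on chromosome 5 and ERBB3 on chromosome 34, while FLNA is not placed on a chromosome.

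All values below are log2 signals relative to the 75th percentile of the array, on which a difference of 1 is 2-fold. No spot was saturated, and 79.0% to 83.1% of the 43803 spots per array carried the flag of being well above background. The dimmest probe with that flag read between -6.94 and -6.46, depending on the array. HINTW went against the label in 2 libraries, those labelled female 3 and male 3, on each of its 8 probes. Its probe A_87_P060451 read 6.61 and 6.54 in female 1 and 2, -4.31 in female 3, -4.30 and -4.32 in male 1 and 2, and 7.01 in male 3. The names female 3 and male 3 below always mean the libraries so labelled. The female-labelled arrays all lay on 1 slide and the male-labelled ones on another, and the effects of slide and label cannot be told apart. Arrays of the same number also had the same position on their slide. All 13 leukocyte markers on the array were well above background in all 6 libraries, CD3D, a chain of the T cell receptor complex, reading 7.53 to 8.11.

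**Figure D1:**
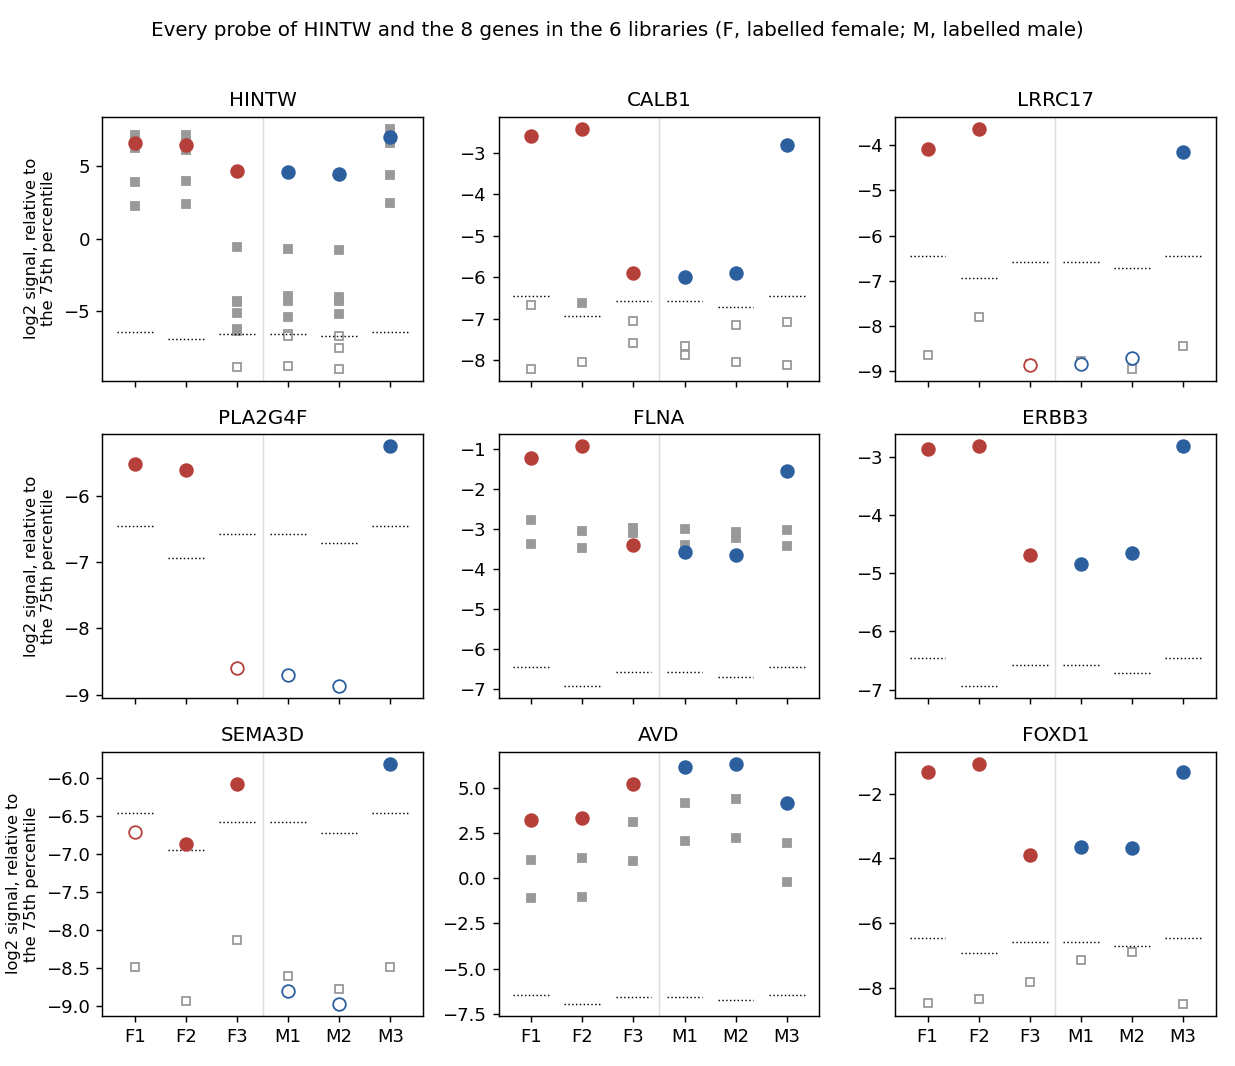
Log2 signal (y axis) of every probe of HINTW and of the 8 genes in the 6 libraries (x axis); large circles are the brightest kept probe, small squares the other probes, open symbols are not well above background and dotted lines mark the dimmest probe well above background on each array. In 7 of the 8 genes the circles of F3 and M3 stand on the side of the other label, and SEMA3D is the exception.

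AVD alone of the 8 genes was higher in male 1 and 2, and it alone had several probes that agreed. Avidin is the biotin-binding protein of egg white, made by the hen's oviduct under progesterone. Its brightest probe read 3.21 and 3.31 in female 1 and 2, 5.21 in female 3, 6.16 and 6.30 in male 1 and 2, and 4.14 in male 3. The libraries numbered 3 thus changed places but stayed between the others. On a scale where the mean of female 1 and 2 is 0% and that of male 1 and 2 is 100%, female 3 stood at 65.7% and male 3 at 29.5%. The second probe, A_87_P174038, put them at 63.5% and 27.7%, and the third, A_87_P112169, at 62.4% and 27.2%. The difference between male 1 and 2 and female 1 and 2 was 7.82-fold, 9.10-fold and 9.33-fold on the 3 probes, all well above background on all arrays. In a bulk sample such as this, fewer cells that make a transcript and less transcript per cell cannot be told apart.

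LRRC17, a secreted leucine-rich repeat protein that in mouse restrains osteoclast formation, was detected in 3 of the 6 libraries. Its probe A_87_P116758 read -4.08 and -3.64 in female 1 and 2, -8.87 in female 3, -8.84 and -8.71 in male 1 and 2, and -4.15 in male 3. Only female 1, female 2 and male 3 were well above background, so the size has only a lower bound. It was at least 6.91-fold higher in female 1 and 2 than in male 1 and 2, with measured means of -3.86 and -8.78. In male 3 it was at least 5.40-fold higher than in female 3. The measured difference, 4.73 log2, had a limma adjusted p of 0.0671, and with values floored at the detection limit it was 2.43 log2 with an adjusted p of 0.199. In processed intensity units these were readings of 51.1 in male 3 and 1.86 in female 3. The gene's other probe was not well above background anywhere.

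SEMA3D, a secreted semaphorin that guides axons and vessels through neuropilin and plexin receptors, did not follow HINTW. It read -6.70 and -6.87 in female 1 and 2, -6.08 in female 3, -8.80 and -8.97 in male 1 and 2, and -5.81 in male 3. Female 3 was therefore on the side of its own label and male 3 on the other side, with only 0.27 log2 between them (SE 0.20, limma adjusted p = 0.766). The probe was well above background in female 2, female 3 and male 3, and not in female 1. Because male 1 and 2 are bounded by a detection limit of -6.65 and the mean of female 1 and 2 is -6.79, no fold can be given. The second SEMA3D probe was not well above background in any library.

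ERBB3 is a neuregulin receptor that signals mainly as the partner of other ERBB kinases, and its level switched cleanly. It read -2.87 and -2.82 in female 1 and 2, -4.69 in female 3, -4.84 and -4.66 in male 1 and 2, and -2.82 in male 3. Male 3 read as female 2 did, and female 3 lay between male 1 and 2. The change was 3.74-fold between the libraries numbered 1 and 2 and 3.65-fold between those numbered 3. The only ERBB3 probe was well above background in all 6 libraries. That flag alone does not show that the transcript was present at the lower level. HINTW probe A_87_P060451 also carried it, at -4.30 and -4.32 in male 1 and 2.

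CALB1 encodes calbindin-D28k, the calcium buffer that vitamin D induces in chick intestine and that is abundant in the shell gland. Its probe A_87_P009403 read -2.59 and -2.42 in female 1 and 2, -5.89 in female 3, -5.98 and -5.90 in male 1 and 2, and -2.81 in male 3. It was 10.8-fold higher in female 1 and 2 than in male 1 and 2, and 8.46-fold higher in male 3 than in female 3. Its other probes did not show this. Probe A_87_P058141, printed in 5 spots, was not well above background anywhere, and A_87_P129528 was so in female 2 alone, at -6.62.

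PLA2G4F, a cytosolic phospholipase A2 that cleaves fatty acids from membrane phospholipids, had 1 probe and was near the detection limit. It read -5.53 and -5.61 in female 1 and 2, -8.60 in female 3, -8.70 and -8.87 in male 1 and 2, and -5.26 in male 3. The first, second and last of these were well above background and the others were not. The level was at least 2.11-fold higher in female 1 and 2 than in male 1 and 2, with measured means of -5.57 and -8.78. It was at least 2.49-fold higher in male 3 than in female 3. By limma the measured difference of 3.34 log2 had an adjusted p of 0.0620, and the floored one of 1.32 log2 an adjusted p of 0.267.

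FLNA encodes filamin A, which crosslinks actin filaments and ties them to integrins, and its probes disagreed. Probe A_87_P038138 read -1.22 and -0.93 in female 1 and 2, -3.39 in female 3, -3.57 and -3.66 in male 1 and 2, and -1.55 in male 3. That is 5.82-fold between the libraries numbered 1 and 2 and 3.60-fold between those numbered 3. The other FLNA probes were well above background in all 6 libraries too, yet A_87_P128723 read -2.92 in the mean of female 1 and 2 against -3.04 in that of male 1 and 2. A_87_P112198 read -3.42 against -3.31. The highest and lowest of the 6 libraries on A_87_P128723 were -2.78 and -3.08, so 1 of 3 probes carried the whole pattern.

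FOXD1, a forkhead transcription factor of kidney stroma and retina, is Z-linked but was lower in male 1 and 2. Its probe A_87_P131088 read -1.32 and -1.08 in female 1 and 2, -3.89 in female 3, -3.64 and -3.69 in male 1 and 2, and -1.34 in male 3. The fold was 5.51 between libraries numbered 1 and 2 and 5.83 between those numbered 3. The other probe, A_87_P009068, ran from -8.50 to -6.91 and was not well above background in any library.

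Across the 17 probes, 12 passed the filter of being well above background on at least 3 arrays, and 10 of these were at least 2-fold apart in all 4 pairs of libraries numbered 1 and 2. The other 2 are the flat FLNA probes. Only AVD and FLNA had more than 1 probe that passed. For the other 6 genes the pattern thus rests on 1 probe each. The brightest probes of 5 genes were well above background on all 6 arrays, and those of LRRC17, PLA2G4F and SEMA3D on 3.

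The differences that chose the 8 genes did not use the libraries numbered 3, but the filter on dim probes did. LRRC17 and PLA2G4F passed it through a male 3 well above background, and SEMA3D through both female 3 and male 3, so for these 3 genes the libraries numbered 3 were part of the choice. In 6 of the 8 genes male 3 was at least 2-fold higher than female 3. LRRC17 and PLA2G4F are among the 6, so this count is not set against a share of all features. Of the 5 genes well above background on all 6 arrays, CALB1, FLNA, ERBB3 and FOXD1 were at least 2-fold higher in male 3, against 3.87% of all 29509 features tested. The other of the 5, AVD, was at least 2-fold lower in male 3, against 2.34% of all features. The 5 genes were chosen for a difference and the features were not, so nothing is read from these contrasts. FLNA is counted on its brightest probe, and its other probes gave -0.33 and -0.05 log2 for male 3 minus female 3. Over the 7 genes that were higher in female 1 and 2, the median difference between male 3 and female 3 was 2.54 log2, or 1.87 with values floored at the detection limit. Over all features it was 0.03 with measured values, but those were not chosen for a difference. The 7 also include LRRC17, PLA2G4F and SEMA3D, so their median is a description and nothing is read from it. None of the 8 passed when male 3 minus female 3 was fitted across all features (limma, adjusted p from 0.0620 to 0.766, threshold 0.05), and 22 features did (0.0746%). At an unadjusted p under 0.05 there were 7 of 8 genes, against 9.58% of features. This fit takes its spread from the libraries numbered 1 and 2, assumes that the lone libraries vary like them, and so uses replicate differences that helped to choose the genes. Those differences were 0.05 to 0.44 log2 within a label. The p-values of the 8 genes are thus likely too small, and nothing is read from the 7 of 8. Background correction by normexp with an offset of 50, which lifts dim signals, cut the difference between male 3 and female 3 from 4.73 to 0.86 log2 for LRRC17, from 3.34 to 0.45 for PLA2G4F and from 3.08 to 1.24 for CALB1. It gave 1.06 for both FLNA and ERBB3, 1.55 for FOXD1 and 0.03 for SEMA3D, while AVD, the brightest of the 8, was at -1.04 against -1.07. The mean of all FLNA probes kept gave 0.49.

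**Figure D2:**
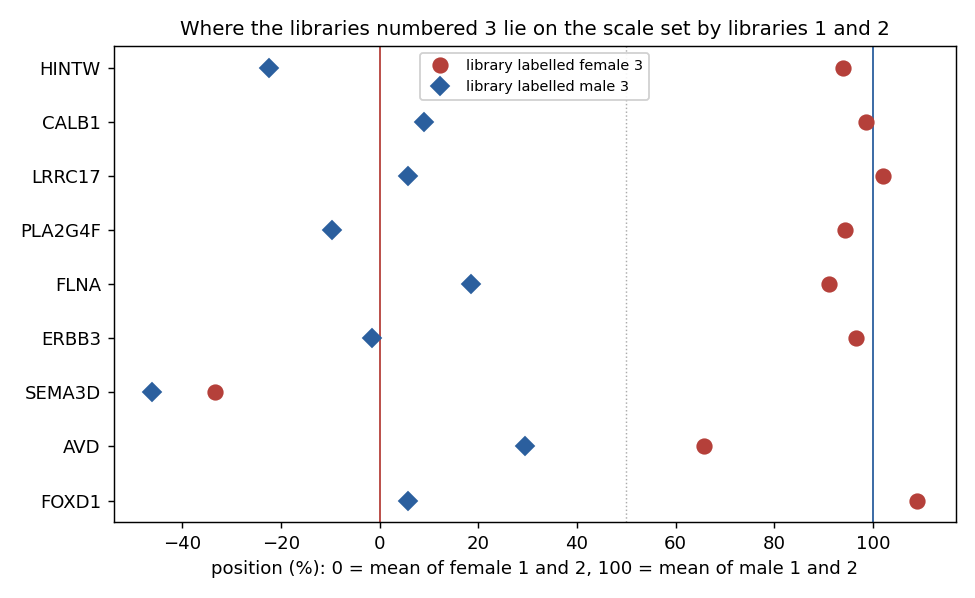
Position of the libraries labelled female 3 (circles) and male 3 (diamonds) for HINTW and each of the 8 genes (y axis), in percent of the way from the mean of female 1 and 2 (0) to the mean of male 1 and 2 (100) on the brightest probe (x axis). For 6 genes the circles lie at 91.2% or further and the diamonds at 18.5% or lower, AVD has 65.7% and 29.5%, and SEMA3D has both below 0; for LRRC17, PLA2G4F and SEMA3D the scale rests on readings not well above background.

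The exchange was nearly complete in the 4 genes measured in all 6 libraries other than AVD. Female 3 stood at 91.2% of the way to male 1 and 2 for FLNA, 96.5% for ERBB3, 98.6% for CALB1 and 109% for FOXD1. Male 3 stood at 18.5% for FLNA, 8.90% for CALB1, 5.84% for FOXD1 and -1.51% for ERBB3. For LRRC17 and PLA2G4F female 3, male 1 and male 2 were all not well above background, so their plotted positions do not show how complete the exchange was. HINTW itself gave 94.0% and -22.5% on its brightest probe, and 93.7% to 104% and -6.64% to -1.51% on its other 7. For AVD both libraries lay nearer the middle.

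Crossing to the other label was common among features separated this way. Of 29509 features, 591 (2%) were at least 2-fold apart, with 1 direction in all 4 pairs of libraries numbered 1 and 2, and in 308 of these (52.1%) both libraries numbered 3 were across the midpoint. Over all features the share was 24%, and among the 84 separated genes with a name it was 52.4%, or 44 genes. The 7 of 8 here is not set against those shares, because LRRC17 and PLA2G4F passed the filter on dim probes through male 3. When a probe had to be well above background on all 6 arrays, 5 of 5 genes crossed, against 50.9% of 403 separated features. The separated features had only to be 2-fold apart, whereas the genes were chosen by an adjusted p under 0.05 (limma) on libraries numbered 1 and 2. This share and the next are thus not from a like set, and nothing is read from the contrast. FLNA is counted on its brightest probe, and its other probes were flat. Female 3 at 80% or further together with male 3 at 20% or lower was found for 175 of the 591 (29.6%). Of the 8 genes, CALB1, FLNA, ERBB3 and FOXD1 met this on readings well above background in all 6 libraries. LRRC17 and PLA2G4F met it on measured readings, but female 3, male 1 and male 2 were not well above background, so nothing is read from them. The 4-fold version of the rule left 138 features, of which 69.6% had crossed.

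**Figure D3:**
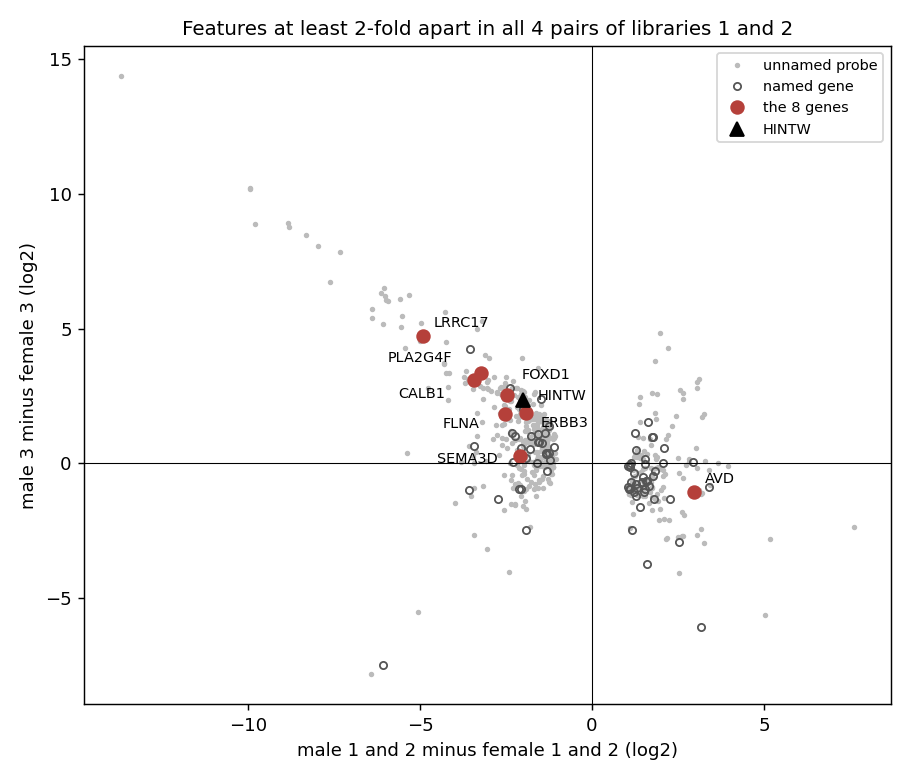
Difference between male 3 and female 3 (y axis, log2) against that between the means of male 1 and 2 and of female 1 and 2 (x axis, log2) for the 591 features at least 2-fold apart in all 4 pairs of libraries numbered 1 and 2. Of the 8 genes, 6 lie in the upper left with HINTW, AVD lies in the lower right at 2.97 and -1.07, and SEMA3D lies near 0 on the y axis at 0.27.

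The named genes that crossed fell unevenly on the chromosomes. Of 4647 autosomal genes tested, 60 were separated and 21 of these crossed, 15 of them higher in female 1 and 2; CALB1, LRRC17, PLA2G4F and ERBB3 are among the 15. Of 198 Z genes, 21 were separated and 20 crossed, 17 of them higher in male 1 and 2, with AVD at 2.97 log2 the widest. FOXD1 is 1 of 3 Z genes that crossed and were higher in female 1 and 2; the others, named after their values were seen, are the protease receptor gene F2RL1 at -1.56 log2 and the relaxin family gene RLN3 at -1.48. Of 5 unplaced genes tested 1 was separated, FLNA, and it crossed. Of 9 W genes tested 2 were separated, HINTW and LOC100857579, and both crossed.

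With all 6 libraries in their labelled groups none of the 8 genes passed, and none of 29509 features did (0%; limma, lowest adjusted p = 0.104 over all features). At an unadjusted p under 0.05 there were 0 of the 8 genes and 1124 features (3.81%). AVD averaged 5.53 ± 1.21 in the male-labelled and 3.91 ± 1.13 in the female-labelled libraries (SD, n = 3 each), a difference of 1.62 log2 (SE 0.77). LRRC17 gave -1.70 for male minus female (SE 1.82), with means of -7.24 ± 2.67 and -5.53 ± 2.90 (SD, n = 3 each). The other 6 genes lay between -1.31 for SEMA3D and -0.65 for ERBB3. The labelled groups overlapped in each of the 8 genes. The choice of these genes rested on part of this contrast, so nothing is read from the count.

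In the fit without female 3 and male 3 on which the choice rested, 85 features (0.288%) passed, and the member nearest the threshold was ERBB3 at an adjusted p of 0.0468 by limma. Just outside lay the W gene LOC100857579 at 0.0506, then the palmitoyltransferase gene ZDHHC8 and the cell cycle inhibitor gene CDKN2A, both at 0.058.

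Among named genes outside the 8, the one with the most similar profile was a W gene for 3 of the 8. The 8 genes were left out as candidates, so whether a member lay nearer to another member is not shown. Likeness was measured as the root mean square difference between 2 profiles over the 6 arrays, each centred on its own mean. LOC100857579, a W gene like HINTW, was nearest to PLA2G4F (0.38 log2), CALB1 (0.51) and LRRC17 (1.22). Over all features, unnamed probes and members included, it held rank 16 for PLA2G4F, 34 for CALB1 and 56 for LRRC17. The profiles of LRRC17, PLA2G4F and SEMA3D rest in part on readings not well above background, and so do their matches. ZDHHC8, on chromosome 15, was nearest to ERBB3 (0.08), FLNA (0.26) and FOXD1 (0.27), and it read -2.68 and -2.56 in female 1 and 2, -4.65 in female 3, -4.76 and -4.49 in male 1 and 2, and -2.65 in male 3. The second nearest were SDSL, on chromosome 15, for CALB1 (0.59), LRRC17 (1.33), PLA2G4F (0.53) and FLNA (0.26), HINTW for ERBB3 (0.21) and LOC100857579 for FOXD1 (0.28). The match of ERBB3 to HINTW is with the HINTW probe A_87_P060491, which differed by -2.01 log2 between male 1 and 2 and female 1 and 2, whereas the other 7 HINTW probes differed by -13.87 to -7.21. AVD was nearest to CDKN2A, also on Z (0.30), and then to the chemokine receptor gene CCR9 (0.52). CDKN2A read 0.34 and 0.15 in female 1 and 2, 1.94 in female 3, 2.36 and 2.69 in male 1 and 2, and 0.63 in male 3. SEMA3D was nearest to TMEM178B on chromosome 1 (0.32) and then to the cytokine gene IL5 (0.53).

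Neighbouring genes on the chromosome were set beside the members. For each of the 7 placed genes the 2 nearest measured genes on either side were taken, by their order in the gene table, a look-up added after the data were seen. At least 2-fold apart in all 4 pairs were 2% of all features and 1 of these 28 neighbours, the avidin-related gene AVR2. It is separated from AVD by 1 gene and read -5.29 and -5.61 in female 1 and 2, -4.71 in female 3, -4.11 and -3.90 in male 1 and 2, and -5.39 in male 3. Male 1 and 2 were thus 1.45 log2 above female 1 and 2. Of the other genes around AVD, RGP1 was at 0.60, TPM2 at 0.39 and TLN1 at -0.06. Male 3 minus female 3 was -0.69 for AVR2, -0.82 for RGP1, -0.76 for TPM2 and -0.38 for TLN1. Of the Z genes around FOXD1, ANKRA2 was at 0.89, UTP15 at 0.94 and CBWD1 at 0.92, against -2.46 for FOXD1. The remaining neighbour, KANK1, was at -2.32, was well above background on 4 of 6 arrays and was not 2-fold apart in every pair. Male 3 minus female 3 was 0.66 log2 for KANK1, the direction of FOXD1 at 2.54, and -0.81 to -0.72 for the other 3 genes around it. CBWD1 and KANK1 are separated from FOXD1 by 22 and 26 genes. VPS39, next to PLA2G4F, was at -0.19, and NAPEPLD and PMPCB beside LRRC17 were at 0.03 and -0.25.

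**Figure D4:**
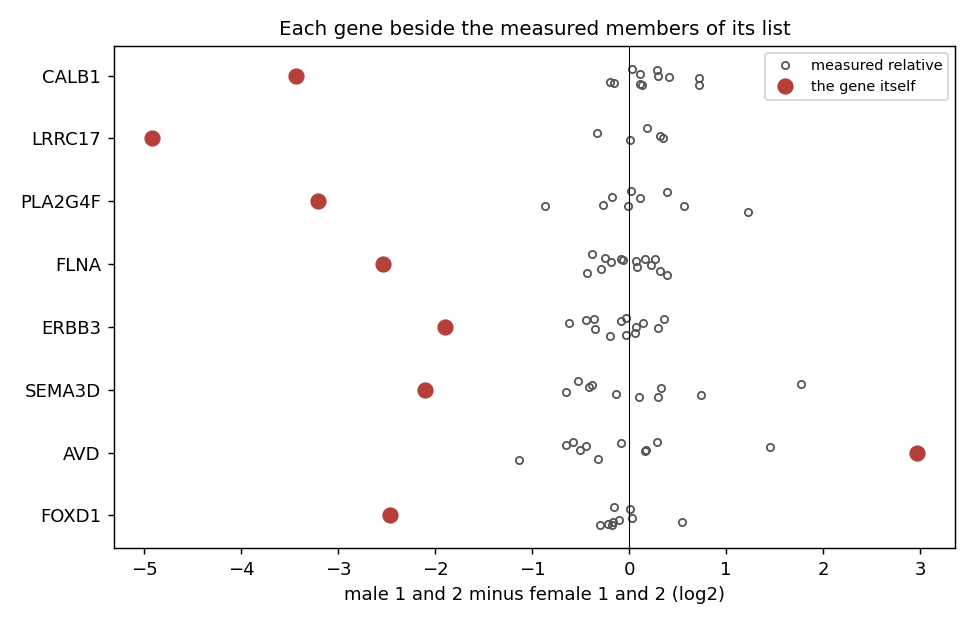
Difference between the means of male 1 and 2 and of female 1 and 2 (x axis, log2) for each of the 8 genes (filled circles) and for the measured genes of its family and pathway list (open circles, scattered vertically within a row for sight). The 82 listed relatives lie between -1.13 and 1.77, around a median of 0.01.

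Genes of the same families and pathways were separated about as often as features in general. Of 180 relatives listed, 82 were measured, and 0 passed with all 6 libraries or between the libraries numbered 3 (limma, adjusted p threshold 0.05). At an unadjusted p under 0.05 there were 7 of 82 between the libraries numbered 3, against 9.58% of all features. On libraries numbered 1 and 2, 2 relatives (2.44%) were at least 2-fold apart in all pairs, against 2% of all features, and 1 of these, AVR2, also crossed in both libraries numbered 3. The median difference of the 82 between male 1 and 2 and female 1 and 2 was 0.01 log2, against -0.04 over all features.

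Of the lists set beside the secreted members, that of avidin relatives, biotin enzymes and egg white genes had 11 measured genes. Of these, 4 were higher in male 1 and 2 and 7 lower, with a median of -0.32 log2, and AVR2 was the only one separated. TF, the iron carrier ovotransferrin, read 1.46 to 2.62 over the 6 libraries, and the egg white enzyme gene LYZ -0.05 to 2.31. The semaphorin list had 10 measured members with a median of -0.01. DPYSL3, a cytoplasmic mediator of semaphorin signals, was 1.77 log2 higher in male 1 and 2. It read -2.94 in female 3 and -1.95 in male 3, so it did not change places. The small GTPase RHOA differed by 0.10 log2 between those pairs of libraries, and DPYSL2 read 3.09 to 3.70. Among the 5 measured leucine-rich repeat and osteoclast genes the median was 0.18, with LRRC59 between 2.14 and 2.58 and LRRC57 between 1.14 and 1.68.

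Among receptors and their partners, 13 ERBB list members were measured with a median of -0.03 log2. The ligand gene BTC read 3.50 and 2.63 in female 1 and 2, 1.06 in female 3, 3.42 and 3.29 in male 1 and 2, and 3.06 in male 3, while the sheddase gene ADAM10 stayed between 4.23 and 4.53. Of the lists set beside the cytoplasmic members, the 11 calcium binding proteins had a median of 0.13, with HPCAL1 at 5.26 to 5.66. The 9 phospholipase and eicosanoid genes had a median of 0.02. The leukotriene cofactor ALOX5AP was 1.23 log2 higher in male 1 and 2, but read 3.11 in female 3 and 2.39 in male 3, a difference of the opposite sign. PTGES3, a prostaglandin E synthase, read 3.24 to 3.43. The 14 filamin and integrin linkers had a median of 0.00 and a widest member of -0.43, with ACTB at 8.16 to 8.27 and the thrombocyte integrin ITGB3 at 6.77 to 7.33. The 9 forkhead genes had a median of -0.16, with FOXO1 at 1.79 to 2.29 and FOXN2 at 0.84 to 1.32.

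Of 11 thrombocyte and erythroid markers measured, 0 passed in either limma fit and 1 had an unadjusted p under 0.05 between the libraries numbered 3. In the means 10 were lower in male 1 and 2 than in female 1 and 2, against 54.3% of all features, with a median of -0.62 log2. The median of male 3 minus female 3 was 0.31. Their summed level, as a multiple of each array's 75th percentile, ranged from 1020 to 1260 in the female-labelled libraries. It was 1200 in male 1, 705 in male 2 and 1310 in male 3. Their mean log2 level was 4.45 and 4.20 in female 1 and 2, 4.08 in male 1 and 3.28 in male 2. Most of the drop thus lay in male 2. None of these markers was at background in every library. RHAG, the erythroid Rh-associated glycoprotein, read 3.59 and 4.09 in female 1 and 2, 4.47 in female 3, 2.21 and 1.37 in male 1 and 2, and 3.50 in male 3, so it was separated but did not cross in both libraries numbered 3. Globin HBBA read 8.06 to 8.74. The 13 leukocyte markers had 9 higher in male 1 and 2, where 54.3% of all features were lower. Their median was 0.37 log2, against -0.04 over all features. Between the libraries numbered 3 the median of male 3 minus female 3 was -0.0 for these markers, against 0.03 over all features. Their summed level ranged from 350 to 505 in the female-labelled and from 430 to 503 in the male-labelled libraries. The part of these cells in the pattern of the 8 genes was not tested.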

How the data were processed

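Spot intensity was deposited by the authors as scanner tables from Agilent Feature Extraction 11.5.1.1 (grid of build galGal3, per the file headers), whose processed signal is background-subtracted and spatially detrended but not scaled between arrays. Other flags per spot, such as well above background, are as deposited. The deposited value table holds the same intensity times 1 factor per array, 2.10 to 2.31, with column medians of 286 to 318, linear and not centred; what they were scaled to is not stated in those sources. Groups came from the labels.

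Log2 of the processed signal less that of the array's 75th percentile was used, without 3 to 12 outlier spots per array. Spots of a probe were averaged, probes well above background on at least 3 arrays kept (35141 of 43603), and a gene represented by its brightest kept probe. Probes were named by unversioned RefSeq accession through a gene table of bGalGal1.mat.broiler.GRCg7b (11935 probes matched). The array uses another build, and coordinates are left out. No sequences were used. limma 3.58.1 in R 4.3.3 (lmFit, eBayes, two-sided, Benjamini-Hochberg over 29509 features) fitted male minus female over all 6 arrays, and male 3 minus female 3 with 4 coefficients and 2 residual degrees of freedom. "At least" folds set the brighter mean against the higher of the dim probe's own value and the lowest signal well above background, per array. On simulated data with 29509 features and 50 changed per size, the first fit recovered 26.0% at 2-fold and 86.0% at 8-fold, the second 46.0% at 8-fold and 84.0% at 64-fold. The number of arrays limits the precision.

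Named genes were the 8 and HINTW, the 2 relatives per list with the highest mean, separated relatives, and the 2 most alike genes outside the 8 per member. A relative named by that rule is not reported here. Members, lists and tests were chosen with earlier results of these data known. Alternatives varied background correction (normexp on the median spot signal), scaling, filters, probe summary, a floor, variance model, replicate block and left-out libraries. Slide could not be a block, since each held 1 label. Python 3.11.15, pandas 2.3.3 and matplotlib 3.10.9 made tables and figures.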

Additional observations from a re-analysis of the deposited data

How the results depend on the processing

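The number of the 8 genes whose libraries numbered 3 both crossed stayed 7 under each change of the values or libraries that kept all 8. The size of the gap does not enter this count, so the 4-fold gap could not alter it. The 7 include LRRC17 and PLA2G4F, which passed the filter on dim probes through male 3, so nothing is read from its staying the same. The count was 5 of 5 when a probe had to be well above background on all 6 arrays. Changes of filter and of variance model left each difference between male 3 and female 3 as it was, so they could not turn its direction. Median scaling and the deposited values moved all genes alike, and of the 8 genes the mean of kept probes altered only AVD and FLNA. The difference between male 3 and female 3 kept its direction and missed the threshold in 101 of 101 refits of the 8 genes singly, of which 32 left out a library numbered 1 or 2 and so changed only the spread. HINTW passed in some of its own refits, at 10.01 log2 with an adjusted p of 0.007 on the mean of its kept probes and at 2.34 with 0.0465 under trended robust variance (limma). The share of separated features that crossed was 52.1%, and moved to 58.9% after normexp, 44.4% with no filter on dim probes, 69.6% with a 4-fold gap, and 35.9% to 40.5% without 1 of the libraries numbered 1 and 2, where 1120 to 1604 features counted as separated. The 22 features that passed between the libraries numbered 3 became 11 after normexp, 13 with floored values, 6 with no filter, 36 with a trended robust variance, and 0 under that stricter filter or without any 1 of female 1, female 2, male 1 and male 2 (1 residual degree of freedom). The labelled sexes gave 0 features, 1 after quantile normalization, 2 with floored values, 0 to 2 without 1 library (2 without male 1) and 85 without female 3 and male 3. Of single genes the labelled difference turned to 0.03 log2 for PLA2G4F and 0.01 for SEMA3D after normexp, and to 0.10 for SEMA3D with floored values; the cause was not tested. With the replicate number as a block 0 features passed between the labelled sexes; deviations of same-numbered samples correlated at 0.01, -0.11 and -0.21, and 0 of 6 samples correlated best with their own number, so the numbers, which also mark the array's position on its slide, were not taken to pair the samples.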
